A study of Homo sapiens and Mus musculus with 10 samples.

Results

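Nuclear genes for the subunits of the mitochondrial respiratory chain were examined in human and mouse myeloid cells treated with WM-1119, an inhibitor of the histone acetyltransferase KAT6A, or with its solvent DMSO. Members were the gene symbols that begin with NDUFA, NDUFB, NDUFC, NDUFS or NDUFV and a number, the SDHA to SDHD genes, every symbol that begins with UQCR, COX4 to COX8 or ATP5, and CYC1. The rule took 92 of 27800 symbols in MOLM-13, a human acute myeloid leukaemia line with an MLL fusion, and 84 of 24493 in ER-Hoxa9, a mouse myeloid progenitor line that depends on an estrogen-controlled HOXA9 protein. MOLM-13 cells received 4 µM WM-1119 for 4 days (3 libraries) or DMSO (3 libraries). ER-Hoxa9 cells received 2 µM WM-1119 for 4 days (2 libraries) or DMSO (2 libraries), and all ER-Hoxa9 cultures held stem cell factor and 0.5 µM β-estradiol. Each line is a laboratory population, line and dose and species differ together, and the labels leave unsaid whether replicates were grown separately, so a p-value covers the spread among libraries that may be technical repeats. Values are TPM, each gene's length-corrected share of the transcripts of its library, scaled to a sum of 1000000. TPM keep no read depth, so the depth is unknown.

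The respiratory chain passes electrons from NADH and succinate to oxygen through complexes in the inner mitochondrial membrane. Complex I oxidises NADH and complex II succinate, both hand electrons to quinone, complex III passes them to cytochrome c, and complex IV reduces oxygen. Complexes I, III and IV pump protons, and complex V, the ATP synthase, uses the returning protons to make ATP. Most subunits are encoded in the nucleus. A few core subunits are encoded in mitochondrial DNA and were not analysed here. Leukaemic myeloid cells are known to draw on oxidative phosphorylation for much of their ATP.

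In MOLM-13 the members comprised 21 core subunits, 43 accessory subunits, 11 general subunits, 7 tissue or condition isoforms and 10 other entries (4 related copies or factors, 3 antisense transcripts, 2 readthrough transcripts and 1 pseudogene). Of the 92, 82 reached a mean of 1 TPM and were tested. The 10 that did not were COX4I2, COX6A2, COX7B2 and COX8C, each listed at 0 in every library, and COX6B2, COX7A1, UQCRHL, UQCRBP1 and both readthrough entries. In ER-Hoxa9, 79 of 84 were tested. Cox4i2, Cox7b2 and Cox8c were listed at 0 in every library, and Cox6b2 and Cox8b stayed below a mean of 1 TPM. In both lines NDUFA4 was counted in complex I by its symbol, although it is found in complex IV. NDUFA4L2, listed as COXFA4L2 in RefSeq, was also counted in complex I by its symbol.

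Promoters of this gene family are known for binding sites of NRF1, a regulator of nuclear genes for mitochondrial proteins, of the ETS factor GABP, also called NRF2, and of YY1. Of the 82 human members tested, 63 had a promoter in the RefSeq table (GRCh38.p14), which spans 250 bases before to 50 bases after the gene start. The NRF1 letters, GCGCA and GCGC with any 1 base between them, stood on either strand in 23.8% of the 63 and in 8.6% of the promoters of 15843 protein-coding genes. The ETS letters CCGGAAG stood in 30.2% of the members and 14.2% of the coding promoters, and the YY1 letters AAGATGGCG in 12.7% and 2.7%. GGGCGG, a letter string bound by SP1, stood in 60.3% and 58.5%, CCAAT in 31.7% and 36.4%, and the E-box CACGTG in 11.1% and 8.9%. Median GC content was 61.0% in the members and 62.7% in the coding promoters. Among 5646 coding promoters with a GC content like that of the members, the ETS letters stood in 19.5%, a smaller contrast with the members. The NRF1 letters stood in 9.6% of these promoters and the YY1 letters in 3.5%. All 6 strings were searched on both strands, and none contains another. These are matches of letters, not measured binding.

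The 250 bases before the start are shown for 4 genes, 1 each of complexes I, II, IV and V, as examples of the NRF1 and ETS letters in genes with higher values under WM-1119 at every replicate number of both lines, although in ER-Hoxa9 the numbers were not taken as pairs. They were chosen after their values were seen. Capitals mark the NRF1 letters in ATP5O, NDUFA9 and SDHD, and the ETS letters in SDHD and COX6A1.
ATP5O (chr21:33915805-33916054, minus strand): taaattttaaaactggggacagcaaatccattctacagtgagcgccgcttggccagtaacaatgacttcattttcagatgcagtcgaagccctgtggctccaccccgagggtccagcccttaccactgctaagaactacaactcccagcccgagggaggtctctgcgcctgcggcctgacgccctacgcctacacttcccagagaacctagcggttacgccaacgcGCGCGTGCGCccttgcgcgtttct
NDUFA9 (chr12:4648864-4649113, plus strand): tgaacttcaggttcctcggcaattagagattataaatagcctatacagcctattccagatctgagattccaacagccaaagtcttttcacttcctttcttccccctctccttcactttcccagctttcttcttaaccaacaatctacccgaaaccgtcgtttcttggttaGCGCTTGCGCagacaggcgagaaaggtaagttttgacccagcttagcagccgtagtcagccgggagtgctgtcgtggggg
SDHD (chr11:112086623-112086872, plus strand): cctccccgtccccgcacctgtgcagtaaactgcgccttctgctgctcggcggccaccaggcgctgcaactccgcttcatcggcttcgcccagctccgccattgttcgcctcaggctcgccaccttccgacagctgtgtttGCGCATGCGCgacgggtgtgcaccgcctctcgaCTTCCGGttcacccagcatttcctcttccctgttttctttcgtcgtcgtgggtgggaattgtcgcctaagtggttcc
COX6A1 (chr12:120437863-120438112, plus strand): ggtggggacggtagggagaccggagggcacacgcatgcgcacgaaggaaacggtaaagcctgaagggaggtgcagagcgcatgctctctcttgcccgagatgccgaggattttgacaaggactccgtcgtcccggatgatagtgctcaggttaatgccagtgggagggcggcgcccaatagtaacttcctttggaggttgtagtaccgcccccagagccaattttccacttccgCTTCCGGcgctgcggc
The marked letters begin 24 bases before the start in ATP5O, 80 in NDUFA9, 110 (NRF1) and 77 (ETS) in SDHD and 16 in COX6A1. ATP5O is listed as ATP5PO in RefSeq. In MOLM-13 members with and without the letters had close medians. The median log2 difference was 0.12 in the 15 members with the NRF1 letters and 0.14 in the 48 without, 0.14 in the 19 with the ETS letters and 0.12 in the 44 without, and 0.14 in the 8 with the YY1 letters and 0.13 in the 55 without. Of the members with NRF1 letters 6 of 15 were higher in every pair, against 34 of 48 without, and for the ETS letters these counts were 16 of 19 and 24 of 44, with no test.

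Before the results, some features of the libraries bear on them. Myeloid markers were present, with 8 of 10 at 1 TPM or more in every MOLM-13 library (CD34 was listed at 0, and KIT stayed below 0.5 TPM) and 10 of 10 in ER-Hoxa9. In ER-Hoxa9 9 of the 10 lay above DMSO without overlap, as did 40.3% of all genes, and Cebpa overlapped. Some gaps were narrow, as for Kit, at 303 and 235 TPM in WM-1119 and 228 and 205 TPM in DMSO libraries. The sum of all 10 was 3456 to 3515 TPM in WM-1119 and 1843 to 3027 TPM in DMSO libraries. These sums include Mpo, which was low in DMSO replicate 1. The sum of 4 B-cell markers was 8.62 to 12.5 TPM in WM-1119 and 1.82 to 4.43 TPM in DMSO libraries of ER-Hoxa9, mostly Cd79a at 12.1 and 7.76 TPM in WM-1119 and 1.35 and 3.58 TPM in DMSO, with Ms4a1 listed at 0 and Pax5 at most 0.633 TPM. The myeloid sums of MOLM-13 overlapped, at 2496 to 3652 TPM in WM-1119 and 2237 to 3395 TPM in DMSO libraries. What part these markers have in the results was not tested. Both MOLM-13 libraries numbered 3 held globin transcripts, with HBB at 49.4 TPM in WM-1119 and 52.1 TPM in DMSO and HBA1 at 158 TPM in WM-1119 and 95.2 TPM in DMSO, against at most 0.140 TPM of HBB and 0.439 TPM of HBA1 in the other MOLM-13 libraries. ER-Hoxa9 DMSO replicate 1 held 385 TPM of Mpo, the neutrophil peroxidase, against 1380 to 1512 TPM in the other ER-Hoxa9 libraries. Cytosolic ribosomal protein genes took 25.7% to 33.9% of TPM in WM-1119 and 26.7% to 39.8% in DMSO libraries of MOLM-13, and 27.7% and 28.8% against 29.9% and 34.0% in ER-Hoxa9. Since TPM are shares, a smaller ribosomal share leaves more for other genes. With the ribosomal protein genes removed and TPM rescaled, the median log2 difference was 0.08 over the members and 0.00 over all genes in MOLM-13, and 0.10 and 0.06 in ER-Hoxa9. Scaling by median of ratios took the median of all genes in ER-Hoxa9 to 0.00, against 0.12 as deposited, and to -0.01 against 0.05 in MOLM-13. In bulk samples fewer cells of a type and less RNA per cell cannot be told apart.

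In MOLM-13 the respiratory chain genes took 2.37%, 1.87% and 2.30% of TPM in WM-1119 libraries 1 to 3 and 2.20%, 1.72% and 1.99% in DMSO libraries 1 to 3. Each WM-1119 library was above the DMSO library of the same number, but the groups overlapped. No member passed at a Benjamini-Hochberg adjusted p under 0.05 over the 12436 genes tested (limma, two-sided), and none had an unadjusted p under 0.05. Among all genes 0% were called higher and 0.00804% lower, and 2.08% and 0.965% had an unadjusted p under 0.05 in these directions. Positive log2 differences (TPM + 1, WM-1119 minus DMSO, which understate low genes) were found for 70 of 82 members (85.4%), against 61.5% of all genes. The median was 0.14 over the members and 0.05 over all genes. With median-of-ratios scaling 73.2% of members and 47.6% of all genes were positive, with a median of 0.07 over the members and of 0.02 to 0.08 over each complex. The count of positive members was 52 without DMSO replicate 3 and 53 without WM-1119 replicate 1, where 42.9% and 44.7% of all genes were positive, and 54 without DMSO replicate 2, where all genes stood at 59.4%.

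Same-numbered MOLM-13 libraries deviated together from their group means, so the numbers were taken to pair them. Within pairs, 51 of 82 members (62.2%) were higher with WM-1119 in all 3 pairs, against 28.6% of all genes. The median member level was 135 to 176 TPM in these libraries, while all genes include those with a mean near 1 TPM. What part the level has in this contrast was not tested. The tested members lower in all 3 pairs were NDUFA10 and COX7A2L, 2.44% against 14.4% of all genes. COX7A1 and NDUFC2-KCTD14, below a mean of 1 TPM and not tested, were also lower in all 3 pairs. Without the globin-bearing pair 3, 53 members were higher in both remaining pairs, against 33.5% of all genes. With the replicate number as a block in limma, 0 members passed the adjusted threshold (all genes 0%), and the lowest adjusted p of a member was 0.133. At an unadjusted p under 0.05 the block took 22 members (26.8%) as higher, against 13.2% of all genes, and 0 as lower, against 4.91%. With median-of-ratios scaling the block took 15 members as higher, against 8.82% of all genes, and 2 as lower, against 9.16%. Without pair 3 it took 8 as higher, against 5.79% of all genes. The ± values of MOLM-13 genes, and all MOLM-13 results with 1 library left out, come from the fit without the block. They include the spread between replicate numbers. The SE without and with the block was 0.26 and 0.07 for NDUFB2, 0.29 and 0.07 for SDHD, and 0.32 and 0.34 for NDUFV2-AS1.

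**Figure D1:**
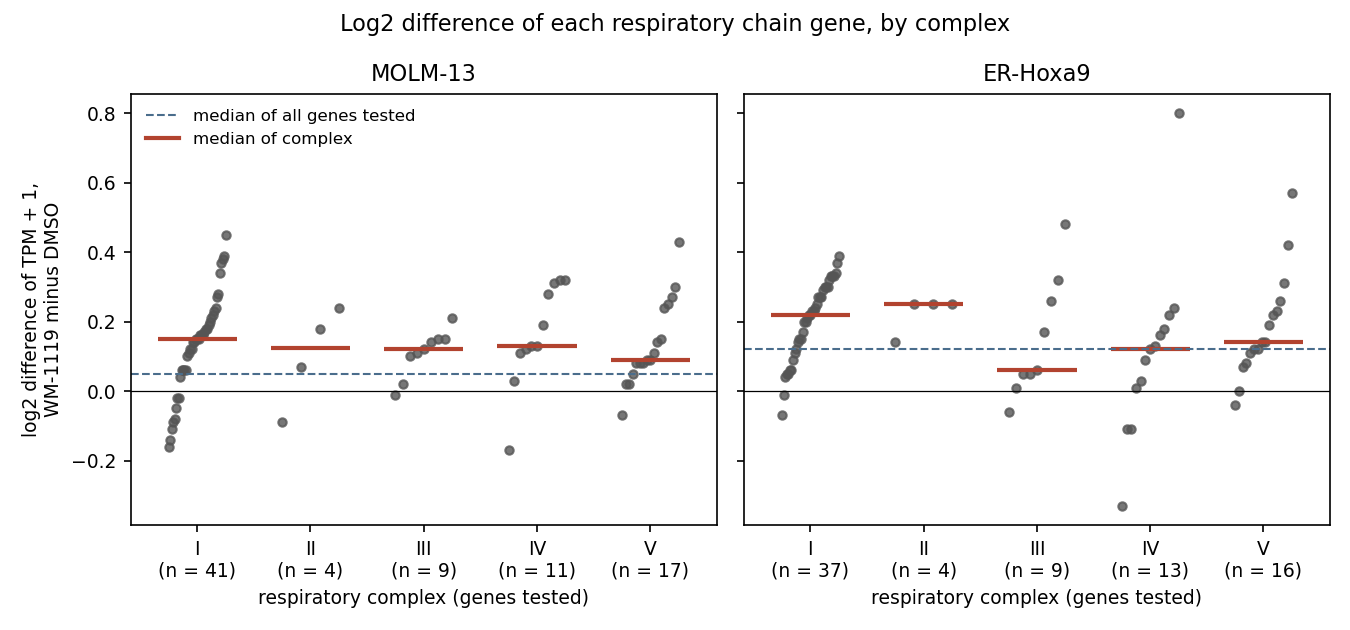
Log2 difference of TPM + 1, WM-1119 minus DMSO, of each tested respiratory chain gene (points, in ascending order within a complex), with the median of the complex (red bar) and of all genes tested (dashed line). NDUFA4 is counted in complex I by its symbol. In MOLM-13 the complex medians of 0.09 to 0.15 lie above the all-gene median of 0.05 (0.02 to 0.08 and -0.01 with median-of-ratios scaling), and in ER-Hoxa9 those of complexes I, II and V (0.22, 0.25 and 0.14) lie above 0.12, that of complex III (0.06) below it and that of complex IV on it.

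Complex I was the largest group, and 33 of its 41 tested entries in MOLM-13 had positive differences. The 41 include 3 antisense transcripts, all 3 positive, with a median of 0.34. Over all 41 the median was 0.15 (range -0.16 to 0.45). It was 0.05 without DMSO replicate 2 and 0.26 without WM-1119 replicate 2. Summed over the complex, TPM were 7272, 5804 and 7756 in WM-1119 libraries and 6877, 5339 and 6621 in DMSO libraries. Its largest difference was that of NDUFB2, an accessory subunit of the membrane arm (chr7:140690777-140722790). NDUFB2 had 305, 230 and 371 TPM in WM-1119 libraries 1 to 3, against 241, 165 and 255 TPM in DMSO libraries 1 to 3. It was higher in every pair, while the groups overlapped (log2 difference 0.45 ± 0.26 SE, adjusted p = 1.00, limma, 0.133 with the replicate block). Leaving out each library gave differences of 0.26 to 0.63. NDUFB6, another membrane-arm subunit, had 53.5, 44.1 and 56.7 TPM in WM-1119 libraries, against 41.0, 33.9 and 41.6 TPM in DMSO libraries. It was 1 of 5 members whose WM-1119 values all lay above their DMSO values (6.10% of members, against 4.54% of all genes). The others were NDUFB11, NDUFB2-AS1, ATP5G2 and ATP5S. In the opposite direction COX7A2L was the only tested member (1.22% of members, 2.43% of all genes). NDUFB2-AS1 reached a mean of 1 TPM through its WM-1119 libraries, with means of 1.46 TPM in WM-1119 and 0.906 TPM in DMSO. So did NDUFV2-AS1, with 1.32 TPM in WM-1119 and 0.806 TPM in DMSO. The readthrough entry NDUFC2-KCTD14, not tested, also lay below without overlap, with means of 0.0283 TPM in WM-1119 and 0.495 TPM in DMSO. NDUFB2-AS1 lies antisense to NDUFB2, and whether the values separate strands is not given in the sources used here, so reads of the 2 cannot be told apart.

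The 7 core subunits of complex I had differences of -0.02 to 0.19 with a median of 0.06, and 4 were higher in every pair. The 29 accessory subunits ran from -0.14 to 0.45 with a median of 0.15, and 17 were higher in every pair, with no test between the classes. NDUFS8, an iron-sulphur subunit, was the highest of the core, with 129, 93.3 and 103 TPM in WM-1119 and 114, 79.4 and 93.2 TPM in DMSO libraries. NDUFV1, which binds FMN and oxidises NADH, had 175, 142 and 130 TPM in WM-1119 libraries and 172, 140 and 117 TPM in DMSO libraries (log2 difference 0.06). NDUFS1, the largest iron-sulphur subunit, had 52.2, 40.2 and 27.1 TPM in WM-1119 and 49.8, 38.2 and 26.4 TPM in DMSO libraries, higher in every pair by at most a few TPM. In NDUFV1 and NDUFS1 replicate 3 was lowest in both groups, and the spread within a group exceeded the difference between groups. With median-of-ratios scaling both differences were -0.01. NDUFB9, the most abundant gene of the complex, had 988, 786 and 838 TPM in WM-1119 and 893, 700 and 743 TPM in DMSO libraries, and was higher in every pair.

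Negative differences were found for 8 of the 41 entries of complex I, where 38.5% of all genes were negative. NDUFB10, an accessory subunit, had 188, 165 and 156 TPM in WM-1119 and 229, 172 and 155 TPM in DMSO libraries. NDUFA10, a matrix-side accessory subunit, was lower in every pair, with 42.1, 36.0 and 28.8 TPM in WM-1119 and 46.7, 36.9 and 30.5 TPM in DMSO libraries. NDUFA4L2, a hypoxia-induced relative of NDUFA4, had the most negative value of the complex (-0.16 ± 0.66), and its level followed replicate number, at 2.91, 3.58 and 14.2 TPM in WM-1119 and 2.63, 5.61 and 14.8 TPM in DMSO libraries.

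Complex II has 4 nuclear subunits and no mitochondrially encoded one. SDHD, a membrane anchor (gene at chr11:112086773-112120013), had 200, 140 and 118 TPM in WM-1119 and 172, 124 and 93.8 TPM in DMSO libraries, higher in every pair (log2 difference 0.24 ± 0.29, but 0.03 without WM-1119 replicate 1 and 0.47 without DMSO replicate 1). SDHB, the iron-sulphur subunit, had 122, 102 and 94.5 TPM in WM-1119 and 116, 88.2 and 77.7 TPM in DMSO libraries. SDHA, the flavoprotein that oxidises succinate, went the other way in pairs 1 and 2, with 87.9, 77.7 and 48.7 TPM in WM-1119 and 103, 85.4 and 45.8 TPM in DMSO libraries. The groups overlapped for all 4 genes, and the median of the complex was 0.13, or -0.03 without WM-1119 replicate 1 or without DMSO replicate 3.

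Complex III had 8 of 9 positive differences with a median of 0.12, which was -0.03 without WM-1119 replicate 1 and 0.00 without DMSO replicate 3. UQCRB, a small accessory subunit, had 136, 107 and 143 TPM in WM-1119 and 113, 99.1 and 122 TPM in DMSO libraries (0.21 ± 0.19, and 0.12 without WM-1119 replicate 3). CYC1, cytochrome c1 and the most abundant gene of the complex, had 672, 538 and 506 TPM in WM-1119 and 709, 533 and 462 TPM in DMSO libraries, and UQCRFS1, the Rieske iron-sulphur protein, had 279, 200 and 167 TPM in WM-1119 and 286, 178 and 145 TPM in DMSO libraries. UQCRC1, core protein 1, had 274, 244 and 165 TPM in WM-1119 and 270, 234 and 136 TPM in DMSO libraries, so that replicate 3 was lowest in both groups. UQCRH, the hinge protein, differed by -0.01 ± 0.16. It has a near-identical intronless copy, UQCRHL, listed at most at 0.577 TPM, and reads of the 2 may be split uncertainly. The same holds for UQCRB and its pseudogene UQCRBP1, and for ATP5L and ATP5L2.

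In complex IV of MOLM-13 10 of 11 tested genes had positive differences and 8 were higher in every pair, with a median of 0.13, or 0.31 without WM-1119 replicate 2. COX6A1, the form of subunit 6A found outside muscle, had 498, 424 and 420 TPM in WM-1119 and 436, 334 and 309 TPM in DMSO libraries (0.32 ± 0.19). COX6B1, the general form of subunit 6B on the cytochrome c side, had 757, 608 and 671 TPM in WM-1119 and 624, 507 and 498 TPM in DMSO libraries (0.32 ± 0.18). For each of these, 1 or 2 WM-1119 libraries lay below the highest DMSO library, DMSO replicate 1. COX6C, a small membrane subunit, had 453, 359 and 377 TPM in WM-1119 and 370, 306 and 304 TPM in DMSO libraries, and COX8A, the general form of subunit 8, had 858, 728 and 1064 TPM in WM-1119 and 744, 666 and 696 TPM in DMSO libraries.

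The 3 tested genes of complex IV that were not higher in every pair were COX5A, COX7B and COX7A2L. COX5A, on the matrix side, had 403, 287 and 312 TPM in WM-1119 and 404, 276 and 302 TPM in DMSO libraries (0.03 ± 0.22, and -0.04 with median-of-ratios scaling). COX7B, a small membrane subunit, had 618, 481 and 420 TPM in WM-1119 and 626, 401 and 375 TPM in DMSO libraries, higher in pairs 2 and 3. COX7A2L, a subunit 7A relative that joins complexes III and IV in supercomplexes, was the lowest of the complex, with 117, 110 and 116 TPM in WM-1119 and 122, 136 and 128 TPM in DMSO libraries (-0.17 ± 0.16, adjusted p = 1.00, limma). Its WM-1119 values all lay below its DMSO values.

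Complex V had 16 of 17 positive differences with a median of 0.09, which was 0.27 without DMSO replicate 1 and 0.00 without WM-1119 replicate 1. The 17 include 2 related entries, not counted as subunits and both positive. These are ATP5S, formerly called factor B, and ATP5L2, a copy of the subunit g gene. ATP5E, the epsilon subunit of the rotor (chr20:59025467-59032382), had 932, 678 and 1033 TPM in WM-1119 and 670, 474 and 835 TPM in DMSO libraries. It was higher in every pair and the most abundant gene of the complex (0.43 ± 0.26, and 0.21 without DMSO replicate 2). The subunits of the F1 head, ATP5A1 (alpha) and ATP5B (beta, the catalytic one), differed by 0.11 and 0.09. ATP5B had 802, 615 and 496 TPM in WM-1119 and 803, 562 and 454 TPM in DMSO libraries. ATP5D, the delta subunit of the rotor, was the only negative value of the complex, with 350, 272 and 355 TPM in WM-1119 and 377, 298 and 346 TPM in DMSO libraries.

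The c-ring, the membrane rotor of complex V, is made of 1 mature protein encoded by 3 genes. ATP5G1 had 303, 165 and 190 TPM in WM-1119 and 265, 140 and 146 TPM in DMSO libraries. ATP5G2 had 549, 489 and 492 TPM in WM-1119 and 486, 479 and 477 TPM in DMSO libraries, without overlap but close (0.08 ± 0.15). ATP5G3 had 124, 90.0 and 67.5 TPM in WM-1119 and 116, 76.1 and 63.2 TPM in DMSO libraries. All 3 were higher in every pair, ATP5G2 was the highest in TPM in every library, and ATP5G3 the lowest.

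**Figure D2:**
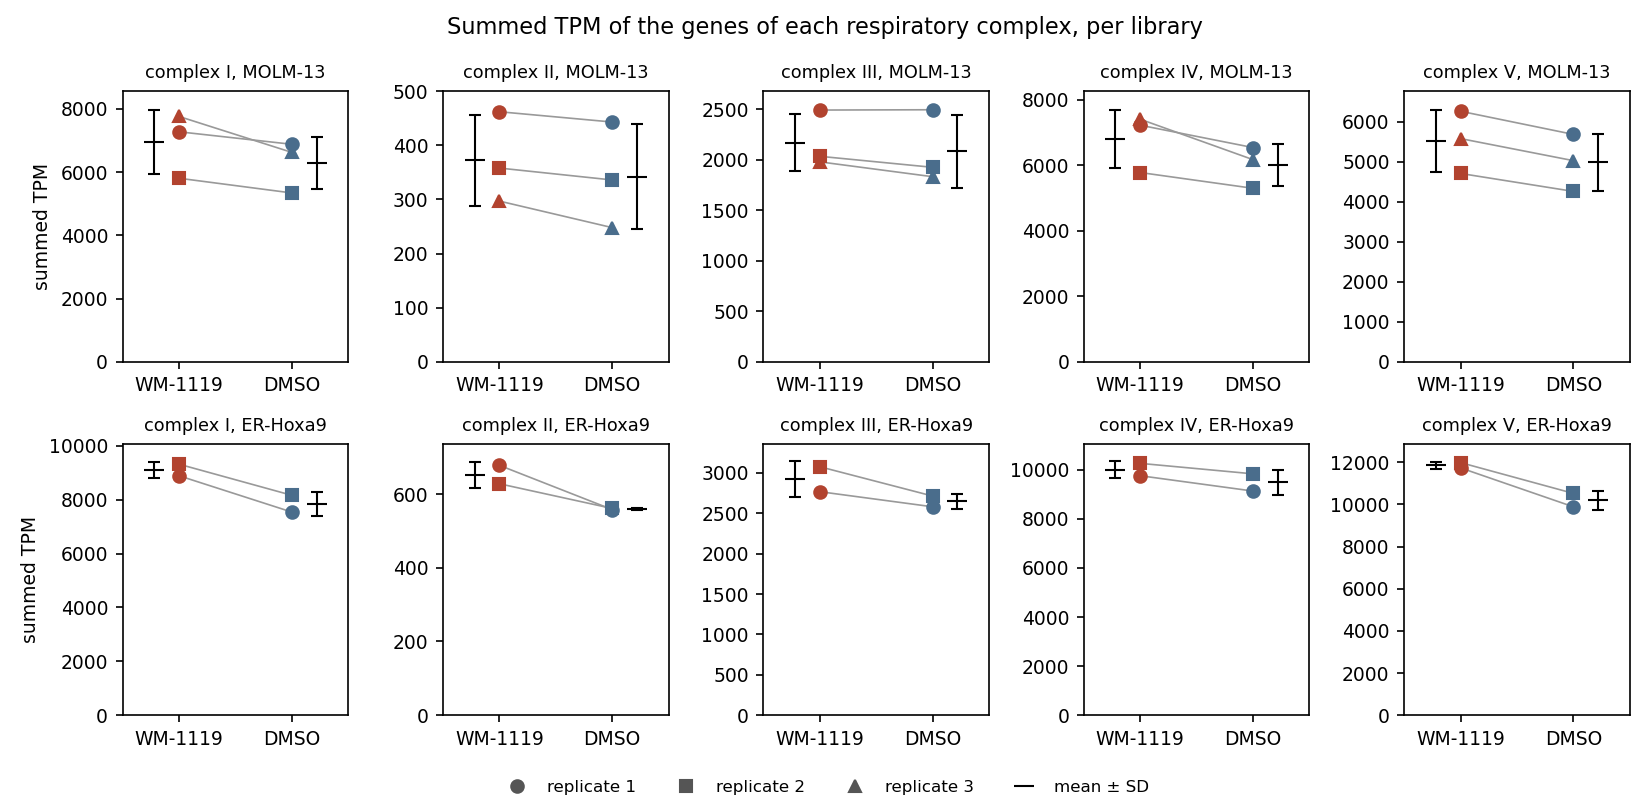
Summed TPM of all genes of each complex in every library, WM-1119 left of DMSO, with same-numbered libraries joined by lines and the mean ± SD beside them (n = 3 MOLM-13 and n = 2 ER-Hoxa9 libraries per group). NDUFA4 is counted in complex I by its symbol. In MOLM-13 lines slope in the same direction for complexes I, II, IV and V, while complex III of replicate 1 is level at 2494 TPM in WM-1119 and 2497 TPM in DMSO, and in ER-Hoxa9 both WM-1119 values of complexes I, II, III and V lie above both DMSO values.

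In ER-Hoxa9 the genes took 3.38% and 3.53% of TPM in WM-1119 libraries and 2.97% and 3.18% in DMSO libraries, without overlap. No member passed at an adjusted p under 0.05 over 11362 genes (limma, two-sided), where 0.0176% of all genes were called higher and 0.0176% lower. At an unadjusted p under 0.05, 9 of 79 members were higher (11.4%, against 11.6% of all genes) and 0 lower (1.13% of all genes). Positive differences were found for 72 of 79 (91.1%, against 71.9% of all genes), with a median of 0.18 over the members and 0.12 over all genes. With median-of-ratios scaling the members' median was 0.04 and 49 of 79 were positive, against 49.4% of all genes, and the medians of complexes III and IV were -0.08 and -0.01. WM-1119 values lay above DMSO values without overlap for 52 members (65.8%, against 40.3% of all genes) and below for 0 (7.94% of all genes). Without DMSO replicate 1, the library with low Mpo, 66 of 79 members were positive, against 70.7% of all genes, and the medians were 0.14 over the members and 0.10 over all genes.

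The largest difference without overlap in ER-Hoxa9 was that of Atp5k, the mouse symbol for membrane subunit e of complex V. It had 2574 and 2466 TPM in WM-1119 libraries 1 and 2, against 1670 and 1718 TPM in DMSO libraries 1 and 2. Both WM-1119 values lay far above both DMSO values (0.57 ± 0.11 SE, adjusted p = 0.300, limma, and 0.44 with median-of-ratios scaling). The human gene for the same subunit, ATP5I, had 409, 268 and 574 TPM in WM-1119 and 357, 247 and 683 TPM in DMSO libraries of MOLM-13, higher in pairs 1 and 2 and lower in pair 3.

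Uqcrb of complex III was next, with 348 and 363 TPM in WM-1119 and 248 and 262 TPM in DMSO libraries (0.48 ± 0.10, adjusted p = 0.305, limma). Atp5o, the OSCP subunit that ties the peripheral stalk to the F1 head, had 387 and 377 TPM in WM-1119 and 276 and 295 TPM in DMSO libraries (0.42 ± 0.10, adjusted p = 0.312, limma). Its human counterpart, with the NRF1 letters shown above, had 434, 354 and 344 TPM in WM-1119 and 408, 352 and 313 TPM in DMSO libraries of MOLM-13 (0.08 ± 0.19). The other 6 members with an unadjusted p under 0.05 were Ndufa9, Ndufa11, Ndufb3, Ndufb7, Uqcrfs1 and Atp5c1, with differences of 0.31 to 0.33.

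In complex I of ER-Hoxa9 35 of 37 genes were positive (71.9% of all genes), and 28 lay above without overlap (40.3% of all genes). The median was 0.22, or 0.09 with median-of-ratios scaling. Ndufa9, an accessory subunit at the joint of the arms, had 103 and 95.8 TPM in WM-1119 and 80.5 and 77.3 TPM in DMSO libraries. Ndufv1 had 152 and 136 TPM in WM-1119 and 132 and 130 TPM in DMSO libraries, without overlap. Ndufs4, an accessory subunit of the NADH-oxidising module, had the largest difference of the complex, with 43.9 and 32.4 TPM in WM-1119 and 27.1 and 30.2 TPM in DMSO libraries (0.39 ± 0.18, but 0.17 without WM-1119 replicate 1 and 0.60 without WM-1119 replicate 2). Ndufb2, the gene with the largest complex I difference in MOLM-13, had 279 and 340 TPM in WM-1119 and 303 and 297 TPM in DMSO libraries, with overlap. The negative values were those of Ndufs8 (-0.01) and Ndufc2 (-0.07).

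All 4 genes of complex II lay above their DMSO values without overlap in ER-Hoxa9, as did 40.3% of all genes. Sdha had 172 and 162 TPM in WM-1119 and 134 and 147 TPM in DMSO libraries. Sdhb had 152 and 140 TPM in WM-1119 and 118 and 127 TPM in DMSO libraries. The membrane anchors were close to them, with Sdhc at 176 and 163 TPM in WM-1119 and 161 and 147 TPM in DMSO, and Sdhd at 179 and 164 TPM in WM-1119 and 146 and 141 TPM in DMSO libraries. The log2 differences were 0.25 for Sdha, Sdhb and Sdhd and 0.14 for Sdhc, with adjusted p from 0.408 to 0.611 (limma). The median of the complex was 0.12 with median-of-ratios scaling.

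In complex III of ER-Hoxa9 4 of 9 genes lay above without overlap, near the 40.3% of all genes. Uqcrfs1 had 170 and 161 TPM in WM-1119 and 123 and 143 TPM in DMSO libraries, while Cyc1 had 194 and 171 TPM in WM-1119 and 182 and 171 TPM in DMSO, and Uqcr11, the most abundant gene of the complex and a small subunit, 524 and 744 TPM in WM-1119 and 558 and 645 TPM in DMSO. In complex IV 4 of 13 genes lay above without overlap, a smaller share than the 40.3% of all genes: Cox5b, Cox7a2, Cox7b and Cox8a. Cox7a2, the subunit 7A form found outside muscle, had 315 and 325 TPM in WM-1119 and 266 and 283 TPM in DMSO libraries. Cox5a and Cox6b1 differed by 0.03 and 0.01, and by -0.11 and -0.13 with median-of-ratios scaling.

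In complex V 12 of 16 genes lay above without overlap in ER-Hoxa9 (40.3% of all genes), and the median was 0.14, or 0.01 with median-of-ratios scaling. Atp5c1, the gamma subunit of the rotor, had 317 and 293 TPM in WM-1119 and 235 and 256 TPM in DMSO libraries. Atp5b had 1203 and 1143 TPM in WM-1119 and 1036 and 1092 TPM in DMSO. Atp5e, largest in MOLM-13, had 1492 and 1629 TPM in WM-1119 and 1405 and 1564 TPM in DMSO libraries (0.07 ± 0.12).

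**Figure D3:**
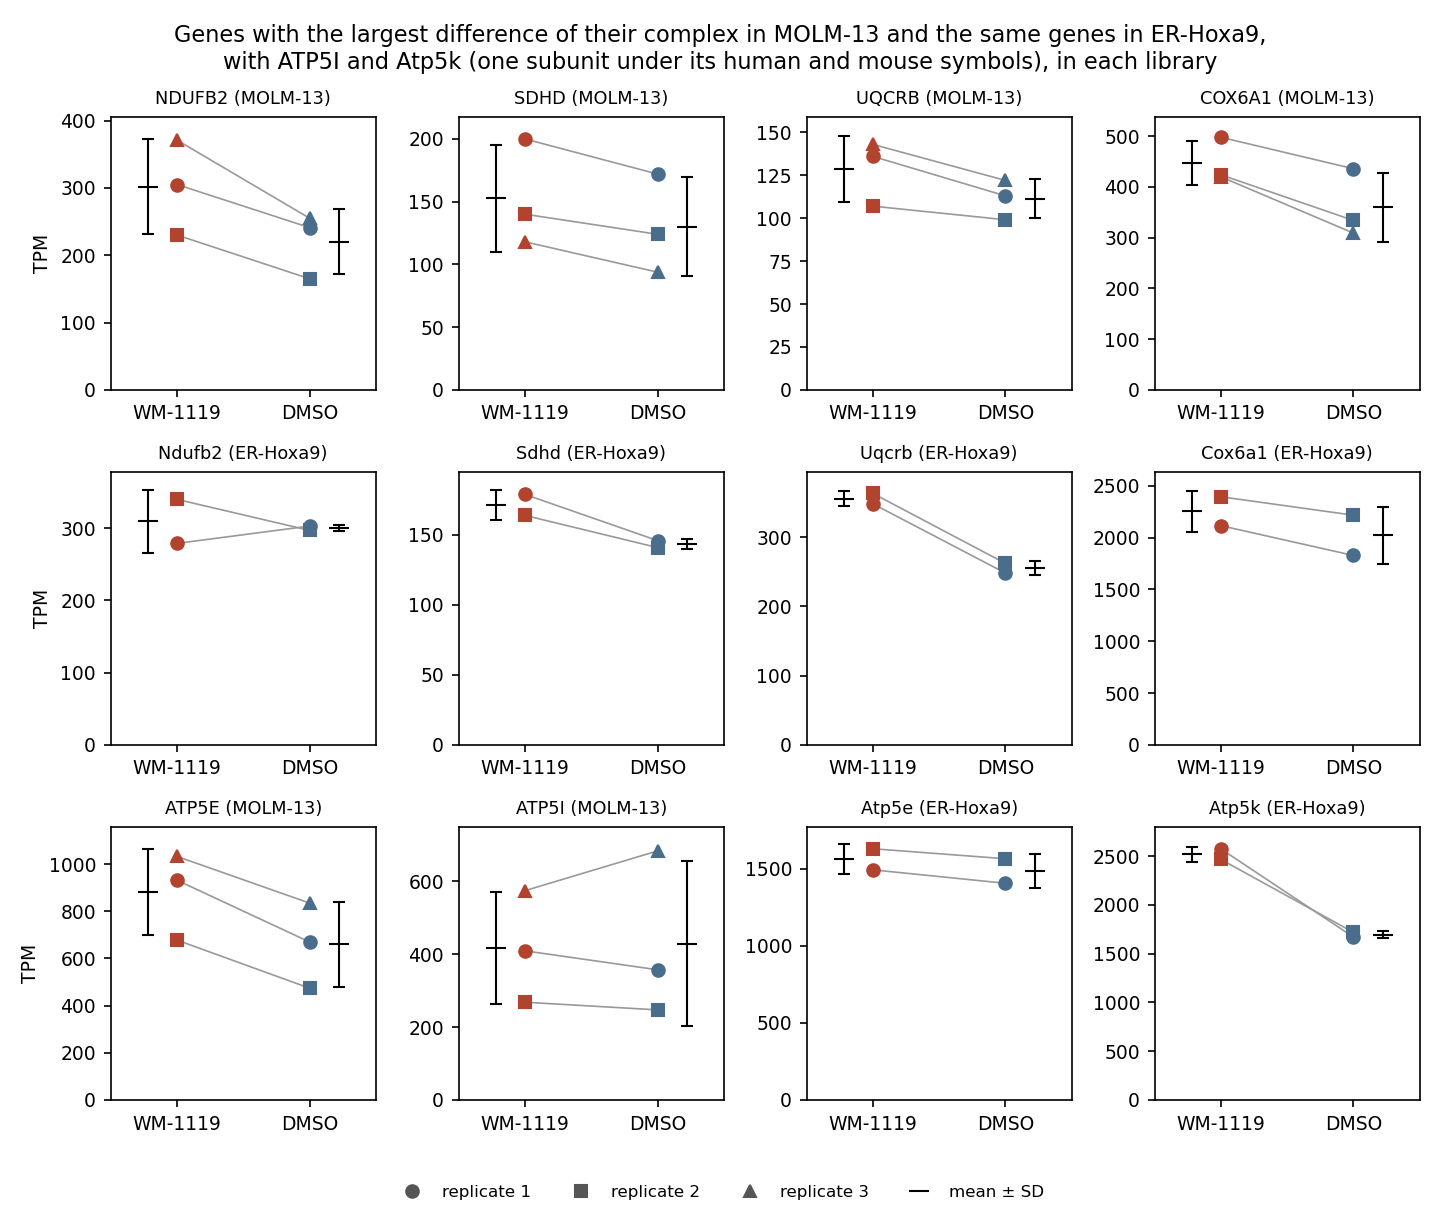
TPM in every library, WM-1119 left of DMSO, for the gene with the largest difference of each complex in MOLM-13 (NDUFB2, SDHD, UQCRB, COX6A1, ATP5E), the same genes in ER-Hoxa9, and subunit e as ATP5I in MOLM-13 and Atp5k in ER-Hoxa9. Lines join same-numbered libraries, and bars give the mean ± SD (n = 3 or 2). Lines of the first 5 genes slope alike in all 3 MOLM-13 pairs, and Uqcrb and Atp5k in ER-Hoxa9 show both WM-1119 libraries above both DMSO libraries.

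The lines were compared over the 76 members tested in both. The difference between lines in the WM-1119 effect passed for 0 of 76 at an adjusted p under 0.05 (limma interaction, 0.0229% of 8726 shared genes) and for 0 at an unadjusted p under 0.05 (2.12%). With a block within each line it passed for 11 unadjusted (14.5%, equal to the 14.5% of shared genes) and 0 adjusted (0.0344%). Estimates, ER-Hoxa9 minus MOLM-13, ran from -0.41 ± 0.35 for NDUFB2 to 0.50 ± 1.54 for NDUFA4L2. NDUFS4 stood at 0.41 ± 0.28, and the 3 each had an adjusted p = 1.00 (limma), which does not show that the lines act alike. Positive differences in both lines were found for 59 of 76 members (77.6%), against 50.5% of shared genes. With median-of-ratios scaling this count was 32 (42.1%, against 28.0% of shared genes), and 24 members stood above 0 in MOLM-13 and below 0 in ER-Hoxa9. The sizes did not run in parallel, since Pearson's r of the log2 differences across members was -0.14 (n = 76 genes, which share libraries), against 0.25 across all shared genes. Of the members 32 were higher in every MOLM-13 pair and above without overlap in ER-Hoxa9 (42.1%, against 16.0% of shared genes). Without overlap in both lines 3 lay above, NDUFB6, NDUFB11 and ATP5G2 (3.95%, against 2.22%). COX7A2L, below without overlap in MOLM-13, had overlapping groups in ER-Hoxa9, with 357 and 293 TPM in WM-1119 and 391 and 313 TPM in DMSO libraries (-0.11 ± 0.17, and 0.05 without DMSO replicate 1).

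Isoform genes differed in level between the lines. The tables were normalized separately, so levels across them are set side by side only. COX6A2, the heart and muscle form of subunit 6A, was listed at 0 in all MOLM-13 libraries. In ER-Hoxa9 Cox6a2 had 510 and 255 TPM in WM-1119 and 480 and 426 TPM in DMSO libraries, with WM-1119 replicate 2 apart from the other 3 (-0.33 ± 0.33, and 0.17 without that library). Cox6a1 stood at 2116 and 2395 TPM in WM-1119 and 1828 and 2217 TPM in DMSO libraries of ER-Hoxa9. Of the muscle markers, Ckm, muscle creatine kinase, had 85.4 and 81.9 TPM in WM-1119 and 71.4 and 79.0 TPM in DMSO libraries, Myh7 was listed at 0, and Acta1 was at most 0.146 TPM. What part the source of Ckm has in the Cox6a2 values was not tested.

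Some isoforms of ER-Hoxa9 followed the replicate number more than the treatment. Cox7a1, the muscle form of subunit 7A, had 7.09 and 59.4 TPM in WM-1119 and 5.66 and 23.1 TPM in DMSO libraries, high in both libraries numbered 2 (0.80 ± 1.08, adjusted p = 0.766, limma). Ndufa4l2 had 1.77 and 30.5 TPM in WM-1119 and 1.62 and 19.8 TPM in DMSO, and Ndufv3, an accessory subunit of the NADH-oxidising module, 133 and 229 TPM in WM-1119 and 98.1 and 214 TPM in DMSO libraries. In MOLM-13 COX7A1 stayed between 0.103 and 0.725 TPM in WM-1119 and between 0.614 and 1.18 TPM in DMSO libraries.

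**Figure D4:**
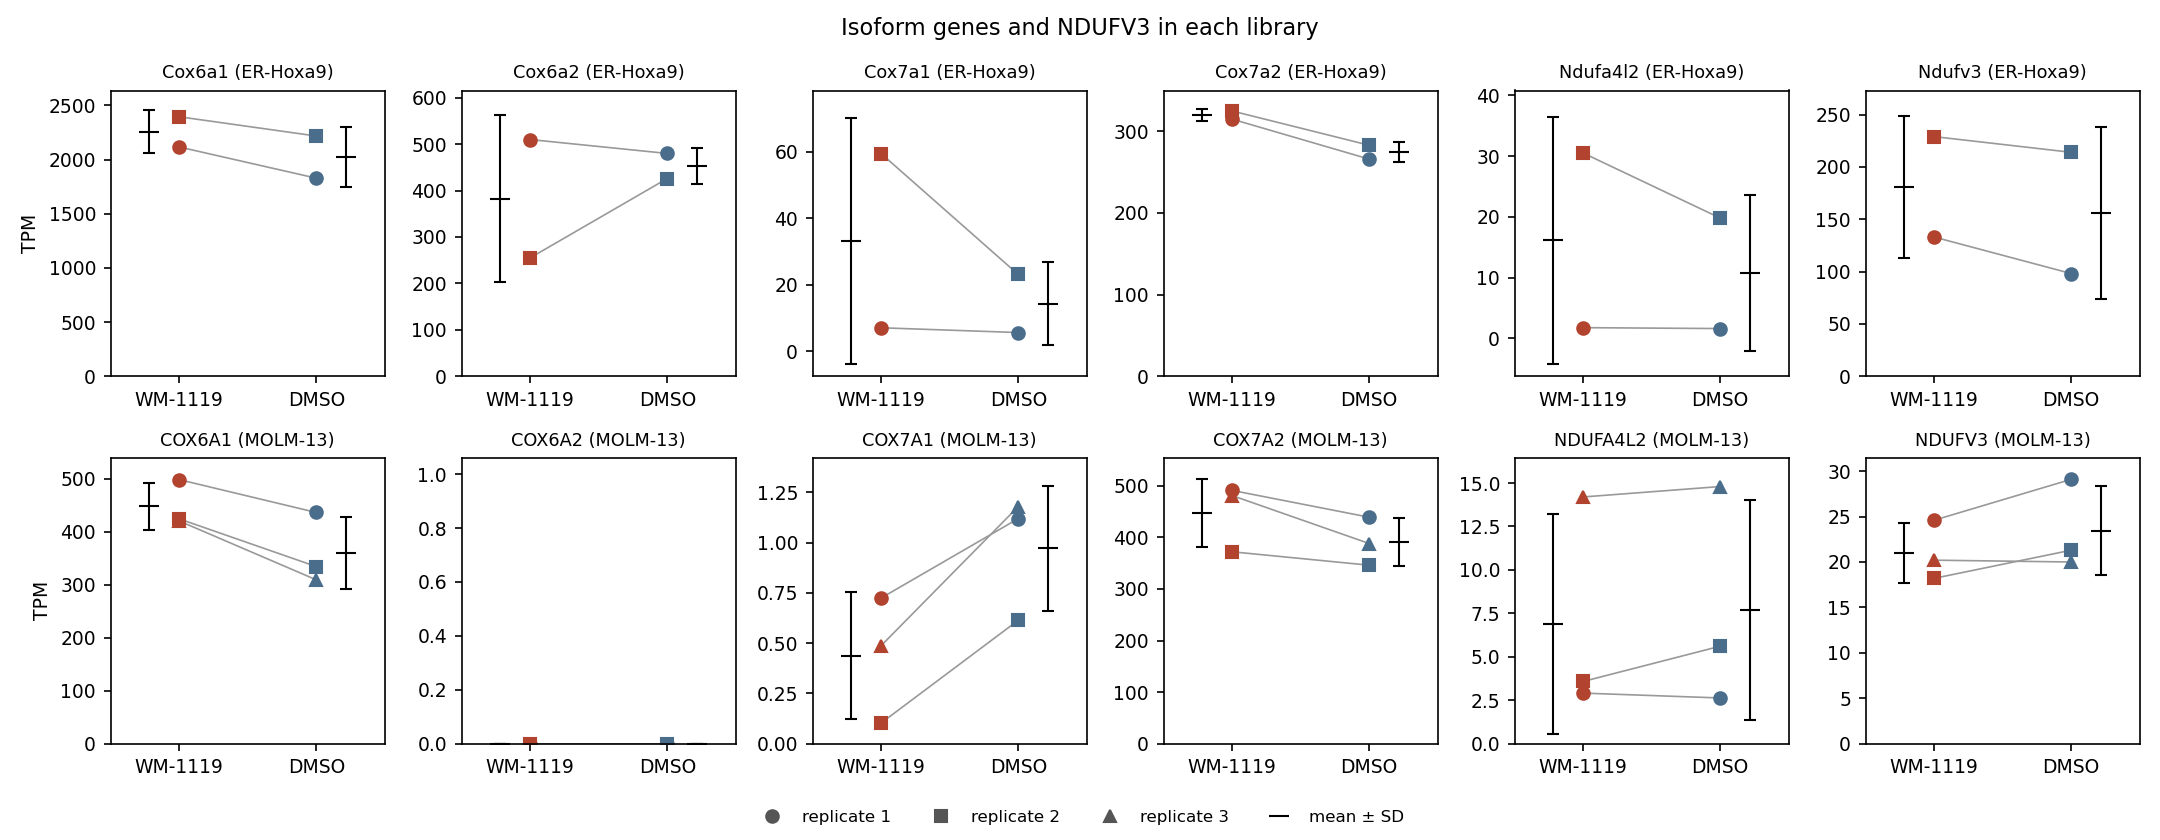
TPM in every library, WM-1119 left of DMSO, for isoform genes of subunits 6A and 7A, NDUFA4L2 and NDUFV3 in ER-Hoxa9 (upper row) and MOLM-13 (lower row), with same-numbered libraries joined and the mean ± SD (n = 2 or 3). Cox7a1, Ndufa4l2 and Ndufv3 are high in both ER-Hoxa9 libraries numbered 2, NDUFA4L2 is high in both MOLM-13 libraries numbered 3, and COX6A2 lies at 0 in MOLM-13.

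Among the genes shared by both tables, mean DMSO levels correlated across genes with a Pearson's r of 0.62 on the log2 scale (n = 76 genes, not independent replicates). NDUFA4, named for complex I but found in complex IV, had the highest ratio, at 783 TPM in ER-Hoxa9 DMSO and 54.4 TPM in MOLM-13 DMSO libraries. NDUFA5, an accessory subunit, stood at 105 TPM in ER-Hoxa9 and 10.4 TPM in MOLM-13. NDUFA11 was the other extreme, at 16.6 TPM in ER-Hoxa9 and 239 TPM in MOLM-13, followed by NDUFA13 at 95.4 TPM in ER-Hoxa9 and 698 TPM in MOLM-13. Both are accessory subunits of the membrane arm. With different species, annotations and lines, the source of these ratios cannot be told apart.

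**Figure D5:**
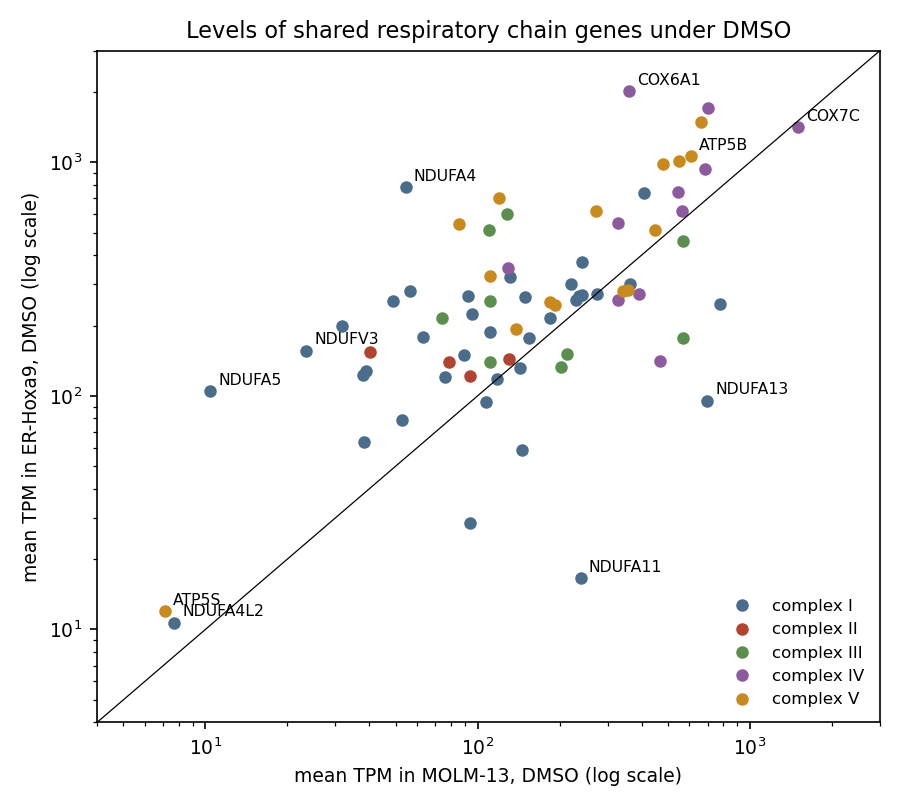
Mean TPM under DMSO of the 76 genes tested in both lines, ER-Hoxa9 (vertical, n = 2 libraries) against MOLM-13 (horizontal, n = 3), on log axes, coloured by complex, with a line of equal values. NDUFA4 and NDUFA5 lie far above the line, and NDUFA11 and NDUFA13 far below it.

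Factors that assemble the complexes, but stay out of the finished enzyme, were followed as a list beside the subunits. In MOLM-13 40 of 55 had positive differences (72.7%, against 61.5% of all genes) with a median of 0.07, or 0.00 with median-of-ratios scaling, and 16 were higher in every pair (29.1%, near the 28.6% of all genes). In ER-Hoxa9 32 of 54 were positive (59.3%, under the 71.9% of all genes) with a median of 0.03, or -0.09 with median-of-ratios scaling. None was called in either line (limma). COX17, a copper chaperone for complex IV, had 183, 123 and 232 TPM in WM-1119 and 139, 104 and 159 TPM in DMSO libraries of MOLM-13, higher in every pair, while Cox17 had 470 and 429 TPM in WM-1119 and 461 and 472 TPM in DMSO libraries of ER-Hoxa9. Cox19, a partner in copper delivery, had 64.5 and 61.8 TPM in WM-1119 and 45.1 and 49.5 TPM in DMSO libraries of ER-Hoxa9 (0.41 ± 0.11, adjusted p = 0.312, limma).

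Other genes of the pathway had 0 calls in either line (limma). Of the electron carriers and quinone-linked enzymes, 13 of 19 were positive in MOLM-13 (median 0.05) and 14 of 18 in ER-Hoxa9 (median 0.14), where all genes stood at 61.5% and 71.9%. With median-of-ratios scaling these medians were -0.02 and 0.01. Of the tricarboxylic acid cycle genes, 16 of 19 were positive in MOLM-13 (median 0.07) and 15 of 17 in ER-Hoxa9 (median 0.17), with medians of 0.00 and 0.03 under that scaling. The carriers for adenine nucleotides and phosphate had 3 of 7 positive in MOLM-13 and 5 of 6 in ER-Hoxa9. Slc25a4, an ADP/ATP carrier, had 166 and 185 TPM in WM-1119 and 117 and 136 TPM in DMSO libraries of ER-Hoxa9 (0.47 ± 0.13, adjusted p = 0.312, limma), while SLC25A4 lay between 1.50 and 1.95 TPM in all MOLM-13 libraries. CYCS, cytochrome c, had 62.2, 45.8 and 43.4 TPM in WM-1119 and 65.7, 35.7 and 39.8 TPM in DMSO libraries of MOLM-13.

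Regulators of mitochondrial biogenesis had 0 calls. Of 17 tested in each line, 11 were positive in MOLM-13 (median 0.06, or 0.00 with median-of-ratios scaling) and 8 in ER-Hoxa9 (median -0.03, or -0.15). Of all genes 61.5% and 71.9% were positive in these lines. In MOLM-13 6 of the 17 were higher in every pair (28.6% of all genes) and 3 lower (14.4% of all genes). Those lower were POLG2 (-0.35 ± 0.25), LRPPRC (-0.24 ± 0.24) and POLG (-0.11 ± 0.21). NRF1, whose letters are shown above, had 11.4, 10.1 and 6.43 TPM in WM-1119 and 9.89, 8.93 and 4.58 TPM in DMSO libraries of MOLM-13, against 31.1 and 28.2 TPM in WM-1119 and 30.3 and 34.0 TPM in DMSO libraries of ER-Hoxa9. ESRRA, an orphan nuclear receptor of this program, had 52.2, 36.2 and 51.5 TPM in WM-1119 and 48.3, 24.7 and 37.8 TPM in DMSO libraries of MOLM-13. TFAM, which packages and transcribes mitochondrial DNA, differed by 0.13 ± 0.22 in MOLM-13 and 0.02 ± 0.11 in ER-Hoxa9. PPARGC1A, the coactivator PGC-1 alpha, was at most 0.0772 TPM in MOLM-13 and 0.273 TPM in ER-Hoxa9.

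Transcript length was set beside the differences because short genes are common in this family. Across the 79 MOLM-13 members with an annotated coding transcript length (96.3% of those tested), Spearman's rho between length and the WM-1119 difference was -0.21, and between length and the difference of DMSO replicate 3 from DMSO replicate 1 it was -0.22. Over 10773 genes these values were -0.09 and -0.12. Members no longer than 716 bases and longer ones had medians of 0.13 and 0.14. The part of length in the results was not tested.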

How the data were processed

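RNA-seq TPM were deposited by the authors as 1 table per line with a value per gene symbol. Per the submitters' processing notes, the authors used Salmon with the builds hg38 and mm10. Its version and the annotation were not given in the sources used here. Each column sums to 1000000. The mouse columns are named LysHoxa9, a name absent from the labels, and were taken as ER-Hoxa9, the only mouse line. Genes whose mean TPM over a line was 1 or more entered a limma 3.58.1 fit of log2(TPM + 1) for that line (R 4.3.3, lmFit, eBayes with trend, no block). Tests were two-sided with Benjamini-Hochberg adjustment over all genes, called under 0.05. The lines were compared by an interaction over symbols matched ignoring case. Members and lists were chosen with earlier results of these data known, so lists are described by counts and medians, with no test.

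Named genes were, per complex, the most abundant subunit, the largest positive and the largest negative difference, a set of catalytic subunits, and isoform pairs; other genes were named after their values were seen. Not every gene of these sets is reported here. Correlations of deviations between same-numbered MOLM-13 libraries were 0.522, 0.438 and 0.608, all over 0.1, so the numbers were taken to pair them, decided from these correlations alone. Human coordinates are from GENCODE (GRCh38), promoters from RefSeq (GRCh38.p14). The fits were tested on simulated data. Alternatives were a pseudocount of 0.1, no filter, median-of-ratios scaling, removal of microRNA or ribosomal protein entries, eBayes without trend, a replicate block and leaving out each library. Each library was left out in a fit without the block. Figures were drawn with matplotlib 3.10.9.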

Additional observations from a re-analysis of the deposited data

How the results depend on the processing

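No member was called under any alternative in either line, nor for the difference between lines. TPM keep no depth, so the precision of each value rests on the 2 or 3 libraries of a group. In ER-Hoxa9 the median log2 difference over members was 0.18 as deposited, 0.04 with median-of-ratios scaling and 0.10 with ribosomal protein genes removed. Under these settings the medians were 0.09 and 0.15 for complex I, 0.12 and 0.18 for complex II, -0.08 and -0.02 for complex III (0.06 as deposited), -0.01 and 0.05 for complex IV (0.12 as deposited), and 0.01 and 0.07 for complex V. Leaving out each library gave MOLM-13 medians of 0.05 to 0.26 for complex I, 0.11 to 0.31 for complex IV and 0.00 to 0.27 for complex V. In ER-Hoxa9 the medians were 0.17 to 0.26 for complex I, 0.19 to 0.30 for complex II and 0.09 to 0.19 for complex III. They were 0.02 to 0.21 for complex IV, lowest without DMSO replicate 1, and 0.09 to 0.18 for complex V.

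Named genes whose sign turned had small differences. In MOLM-13 with median-of-ratios scaling, with or without the block, NDUFS1 had -0.01, NDUFV1 -0.01, CYC1 -0.05 and COX5A -0.04. With ribosomal protein genes removed CYC1 had -0.04 and COX5A -0.03. In ER-Hoxa9 median-of-ratios scaling gave Ndufs1 -0.09, Cyc1 -0.09, Uqcr11 -0.08, Cox4i1 -0.05, Cox5a -0.11, Cox6b1 -0.13, Cox6c -0.01, Atp5a1 -0.05, Atp5g2 -0.01 and Atp5g3 -0.01. With ribosomal protein genes removed Ndufs1 had -0.03, Cyc1 -0.03, Uqcr11 -0.02, Cox5a -0.05 and Cox6b1 -0.07. These scalings lowered the median of all genes too.

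Leaving out each library turned the sign of further genes. In MOLM-13 the ranges were -0.77 to 0.40 for NDUFA4L2, -0.18 to 0.30 for NDUFS1, -0.07 to 0.20 for NDUFV1, -0.43 to 0.16 for SDHA, -0.11 to 0.19 for CYC1, -0.18 to 0.34 for UQCRC1, -0.10 to 0.39 for UQCRFS1, -0.07 to 0.04 for UQCRH, -0.11 to 0.19 for COX5A, -0.11 to 0.31 for COX7C, -0.07 to 0.30 for ATP5A1, -0.10 to 0.31 for ATP5B, -0.16 to 0.05 for ATP5D and -0.08 to 0.39 for ATP5G3. In ER-Hoxa9 they were -1.41 to 2.09 for Ndufa4l2, -0.01 to 0.11 for Ndufs1, -0.05 to 0.14 for Cyc1, -0.16 to 0.05 for Uqcr10, -0.20 to 0.31 for Uqcr11, -0.04 to 0.21 for Cox4i1, -0.06 to 0.11 for Cox5a, -0.82 to 0.17 for Cox6a2, -0.06 to 0.08 for Cox6b1, -0.05 to 0.30 for Cox6c, -0.65 to 2.25 for Cox7a1 and -0.27 to 0.05 for Cox7a2l. These fits had no replicate block, so a MOLM-13 library left out leaves its same-numbered partner without a pair. Within pairs NDUFS1 differed by 0.07, 0.07 and 0.04, and NDUFA4L2 by 0.11, -0.53 and -0.05. What part the broken pairs have in the turned signs was not tested.

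With the replicate block 0 members were called in MOLM-13 and 0 in ER-Hoxa9, and the medians stayed at 0.14 and 0.18. Without the replicate 3 pair the block gave 66 of 82 positive members in MOLM-13, against 56.5% of all genes, with CYC1 at -0.03 and UQCRH at 0.02. In ER-Hoxa9 the correlation of deviations was 0.206 over only 2 pairs, so the numbers were not taken to pair the libraries, and the block took 19 members as higher at an unadjusted p under 0.05 (24.1%, against 15.5% of all genes) where the fit without it took 9.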
